A study of Mus musculus with 6 samples.

Results

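The subunits of the oxidative phosphorylation machinery were compared between *Igf1-/-* and *Igf1+/+* lungs of mouse fetuses at E18.5 (day 18.5 of embryonic development), with 3 arrays per genotype. Subunit genes were taken by name from the array annotation, namely the genes whose symbols begin with Nduf and a subunit letter and number (complex I), the 4 Sdh genes (complex II), those beginning with Uqcr (complex III), those beginning with Cox4 to Cox8 (complex IV) and those beginning with Atp5 (complex V). A probe set counted only where its annotation named 1 gene, and each gene was read at the probe set with the highest mean over the 6 arrays. This gave 78 of the 12393 genes measured, 33 of complex I, 4 of complex II, 8 of complex III, 16 of complex IV and 17 of complex V. They are represented by 147 of 22626 mouse probe sets. All embryos had a C57BL/6J background and came from matings of heterozygous mice. The *Igf1-/-* embryos carried the null allele in every cell, so that the mutation is not restricted to the lung, and the *Igf1+/+* embryos were the wild type controls. The labels name no treatment. According to the methods of the study, E18.5 pups were delivered by C-section and given help to breathe before the lungs were dissected. The part of this breathing period in the differences given here was not tested. The labels mention pooled lungs, whereas the methods of the study describe separate RNA samples, and whether an array stands for 1 animal was not settled. The p values therefore measure only the spread between these RNA samples.

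Oxidative phosphorylation takes place in the inner mitochondrial membrane. Complexes I and II feed electrons from NADH and succinate into ubiquinone, complex III passes them on to cytochrome c, and complex IV transfers them to oxygen. Complexes I, III and IV pump protons out of the matrix, and complex V, the ATP synthase, uses their return flow to make ATP. Apart from complex II, which is built of nuclear products alone, each complex combines subunits encoded in the nucleus with subunits encoded in mitochondrial DNA. Several subunits of complex IV exist as isoforms that are used in different tissues, such as heart and skeletal muscle, lung or testis.

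Expression values had been summarised by RMA in log2 units. They ranged from 3.10 to 14.6, and the correlations between pairs of arrays ran from 0.992 to 0.996. Surfactant protein C (*Sftpc*), the marker of alveolar type II cells, had values between 14.37 and 14.47 in all 6 lungs. *Igf1* itself had values of 8.87, 8.99 and 9.38 in *Igf1-/-* and of 9.28, 9.85 and 9.65 in *Igf1+/+* samples at its brightest probe set. These overlapped, as did those of a dimmer probe set, while at the dimmest one all *Igf1-/-* values (6.15, 6.33 and 6.46) were below those of *Igf1+/+* samples (6.59, 7.12 and 6.97). No *Igf1* probe set reached an adjusted p under 0.10 with limma. Since the place of its probes relative to the deleted sequence is unknown here, they check little about the genotype. The array of *Igf1-/-* replicate 3 stood apart in its content of cardiac muscle mRNA. All 8 cardiac muscle markers were highest in that array, where the mean of the list was 9.52, compared with 8.15 and 8.18 in the other *Igf1-/-* lungs and with 8.15, 8.25 and 8.01 in *Igf1+/+* lungs. Of 7 skeletal muscle markers, 5 were also highest there. *Igf1-/-* replicate 1 and *Igf1+/+* replicate 3 had high levels of Y-linked genes. In *Igf1-/-* replicate 1, the X inactivation transcript *Xist* was nevertheless measured at 7.09, between 3.50 in *Igf1+/+* replicate 3 and the values over 12.10 in the other 4 lungs. Of 4 erythroid markers measured, *Slc4a1* and *Alas2* were lower in *Igf1-/-* lungs, and the other 2, *Hba-a1* and *Epb42*, differed by 0.12 and 0.10 without passing the test. Of 7 granulocyte markers, *Camp* was higher, and the means of the list were 7.53 to 7.92 compared with 7.10 to 7.18. The others, *Ngp*, *Ltf*, *S100a8*, *S100a9*, *Elane* and *Mpo*, had positive differences of 0.20 to 0.68 without overlap between groups, but none passed. Of 6 lung epithelium markers, the alveolar type I marker *Aqp5* was lower. Differences of *Sftpb*, *Sftpa1*, *Nkx2-1* and *Sftpc* were positive and that of *Scgb1a1* was negative, and these did not pass. *Slc4a1*, *Alas2*, *Camp* and *Aqp5* had an adjusted p under 0.10 with limma. No skeletal muscle or brown fat marker passed. The part of these cell types in the differences given here was not tested. In whole lungs, fewer cells of a type and less RNA per cell cannot be told apart.

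Nearly all subunits were expressed at a high level. Of the 78 genes, 73 had a mean over the median of all probe sets, 6.88, and 71 (91.0%) reached the upper quartile, 8.42, compared with 29.8% of all genes. The exceptions in complex I were limited to *Ndufb1* (mean value 5.64), and the other 6 belonged to complex IV, namely *Cox4i2*, *Cox6a2*, *Cox7a1*, *Cox7c*, *Cox8b* and *Cox8c*, with mean values from 5.44 to 7.56. Of these, *Cox4i2*, *Cox6a2*, *Cox7a1*, *Cox8b* and *Cox8c* are isoforms with restricted tissue distribution. Values of different probe sets depend on their probes, and are not a measure of the relative amount of their mRNAs.

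Between genotypes, the subunit genes differed little. At an adjusted p under 0.10 with limma, the level at which a gene is said here to have risen or fallen, 1 of 78 genes (1.28%) rose, *Cox7c*, and none fell. Over all genes the share was 0.597%, and over all probe sets 0.557% (0.164% higher and 0.393% lower in *Igf1-/-* lungs). At the second level of 0.20, *Cox7c* was still the only gene, where 2.72% of all genes passed. Without adjustment, 3 subunit genes (3.85%) had a p under 0.05, *Ndufa12*, *Sdhd* and *Cox7c*, compared with 12.7% of all genes. The groups did not overlap for 5 genes with higher values in *Igf1-/-* lungs (*Ndufv1*, *Sdhd*, *Cox6b2*, *Cox7c* and *Atp5mpl*), which is 6.41% compared with 11.9% of all genes. They did not overlap for 3 genes with lower values (*Ndufa12*, *Ndufb1* and *Ndufb3*), which is 3.85% compared with 6.84%.

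The log2 fold changes, given as the mean of the *Igf1-/-* lungs minus the mean of the *Igf1+/+* lungs, ran from -0.27 for *Ndufa12* to 0.83 for *Cox7c*, and without *Cox7c* the highest was 0.23 for *Sdhd*. Their median was 0.04, and it was 0.03 over all genes and 0.003 over all genes with a mean at or over the upper quartile. Positive differences were found in 51 of 78 subunit genes (65.4%), in 60.6% of all genes and in 51.1% of the genes at or over the upper quartile. The size of the difference, regardless of its sign, had a median of 0.07 for the subunits and of 0.09 for all genes. The moderated standard error (SE) ranged from 0.07 to 0.15 (median 0.09, n = 3 per genotype), and 95% intervals derived from it lay within -0.5 and 0.5 for 75 of 78 genes. Changes beyond 0.5 on the log2 scale in either direction thus lay outside the interval for all subunits but *Ndufa12*, *Cox7a1* and *Cox7c*. Over all genes, 90.2% of the intervals lay within these limits.

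**Figure D1:**
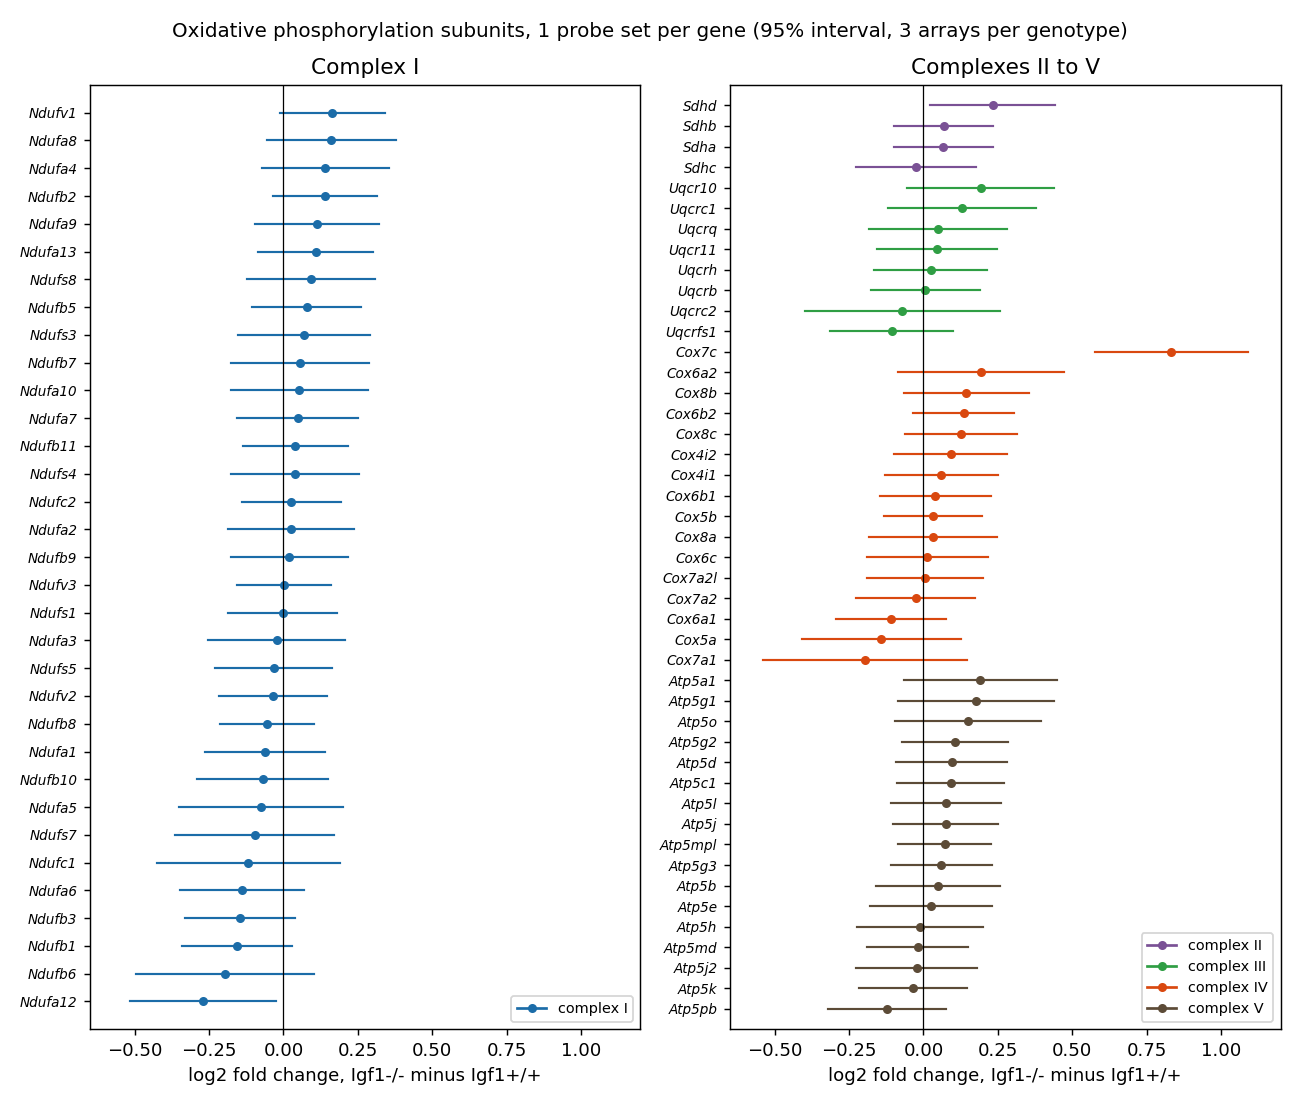
Log2 fold changes (*Igf1-/-* minus *Igf1+/+*, horizontal axis) of the 78 oxidative phosphorylation subunit genes, with complex I on the left and complexes II to V on the right. Points are estimates from 3 arrays per genotype and bars are 95% intervals from limma. *Cox7c*, at 0.83, is separated from all other genes, which lie between -0.27 and 0.23.

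The 6 arrays were not alike in their levels of subunit genes. Of the 78 genes, 35 had their highest value in *Igf1-/-* replicate 3 and 34 had their lowest value in *Igf1+/+* replicate 1, and no gene had its lowest value in *Igf1-/-* replicate 3. Deviations from the mean of the 6 arrays had a median over the 78 genes of -0.03, -0.01 and 0.08 in *Igf1-/-* lungs and of -0.06, 0.02 and -0.01 in *Igf1+/+* lungs. Values of both genotypes thus overlapped, and the highest belonged to the array with the cardiac markers. Without *Igf1-/-* replicate 3, 43 subunit genes had positive differences and 35 negative ones, 1 gene passed an adjusted p of 0.10 and the median was 0.01. Without *Igf1+/+* replicate 1 the median was 0.02. Over all genes, the corresponding medians of single arrays stayed between -0.03 and 0.02, with the same arrays at the ends. *Igf1+/+* replicate 1 was lowest there at -0.027, and *Igf1-/-* replicate 3 was highest at 0.021, next to *Igf1-/-* replicate 2 at 0.019. How many of all genes had their highest or lowest value in each array was not counted. The part of the cardiac mRNA in these differences was not tested.

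**Figure D2:**
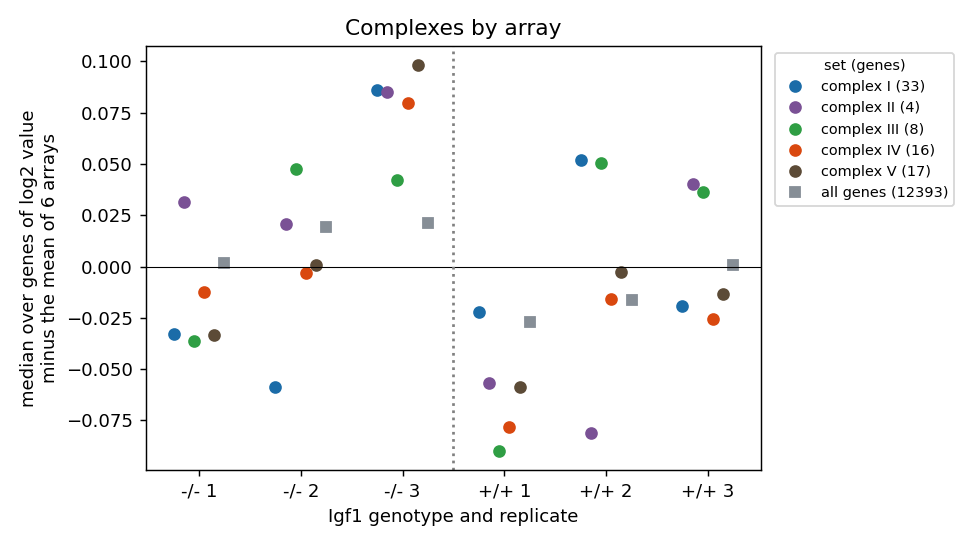
Median deviation of the log2 value from the mean of 6 arrays (vertical axis) for each array (horizontal axis), by complex (circles) and for all 12393 genes (squares). The 5 complexes lie between 0.04 and 0.10 in *Igf1-/-* replicate 3 and between -0.09 and -0.02 in *Igf1+/+* replicate 1.

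Complex I, NADH:ubiquinone oxidoreductase, is the largest of the complexes. None of its 33 genes rose or fell. Differences were positive in 18 and negative in 15, with a median of 0.02, and they ranged from -0.27 to 0.16. The median was -0.04 without *Igf1-/-* replicate 3 and -0.001 with arrays weighted by their quality. In the hydrophilic arm, where NADH is oxidised, *Ndufv1* encodes the flavoprotein that binds NADH. *Ndufv1* had values of 10.51, 10.37 and 10.52 in *Igf1-/-* lungs and of 10.23, 10.32 and 10.35 in *Igf1+/+* lungs. Every *Igf1-/-* value lay above the *Igf1+/+* values, but the margin was small (log2 fold change 0.16, SE 0.08, adjusted p = 0.430 with limma). The other core subunits of this arm, which carry iron-sulfur clusters, had log2 fold changes of -0.03 (*Ndufv2*), -0.00 (*Ndufs1*), 0.07 (*Ndufs3*), -0.10 (*Ndufs7*) and 0.09 (*Ndufs8*).

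Among the accessory subunits of complex I, *Ndufa12* had the largest difference. Its values were 10.61, 10.33 and 10.63 in *Igf1-/-* lungs and 10.74, 10.96 and 10.69 in *Igf1+/+* lungs, which did not overlap. The log2 fold change of *Ndufa12* was -0.27 (SE 0.11, 95% interval -0.52 to -0.03, adjusted p = 0.363 with limma). This probe set has the suffix x, which in the naming of the manufacturer marks probes that may also match other transcripts. The other 3 probe sets of *Ndufa12* differed in the opposite direction, by 0.05, 0.12 and 0.36. The one at 0.05 also has the suffix x. The one at 0.12 has the suffix s, for probes that match more than 1 transcript, and the one at 0.36 was dim (mean 6.55). *Ndufb6*, a subunit of the membrane arm, had values of 10.13, 9.85 and 10.18 in *Igf1-/-* lungs and of 10.37, 10.39 and 9.98 in *Igf1+/+* lungs (log2 fold change -0.20, adjusted p = 0.565 with limma). Its groups overlapped because of *Igf1+/+* replicate 3. The brightest genes of complex I were *Ndufa13*, also known as the cell death regulator GRIM-19, and the X-linked membrane arm gene *Ndufb11*. Their log2 fold changes were 0.11 (SE 0.08) and 0.04 (SE 0.08). *Ndufa4*, which carries the name of a complex I subunit but has been assigned to complex IV, differed by 0.14 (SE 0.09, adjusted p = 0.566 with limma).

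Complex II, succinate dehydrogenase, is shared between the citric acid cycle and the respiratory chain. *Sdha* encodes the flavoprotein, *Sdhb* the iron-sulfur protein, and *Sdhc* and *Sdhd* the membrane anchors. The values of *Sdhd* were 9.65, 9.63 and 9.62 in *Igf1-/-* lungs and 9.28, 9.34 and 9.59 in *Igf1+/+* lungs. All 3 *Igf1-/-* values were above the *Igf1+/+* values, of which replicate 3 came closest. Its log2 fold change was 0.23 (SE 0.09, 95% interval 0.02 to 0.44, adjusted p = 0.361 with limma), and it was 0.00 at a dimmer probe set with a mean of 6.51. *Sdha* and *Sdhb* both had log2 fold changes of 0.07 (SE 0.07), and *Sdhc* one of -0.03. The groups overlapped for all 3 of these genes. The median of complex II was 0.07, and it was 0.006 when the dimmest probe set of each gene was used.

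Complex III, the cytochrome bc1 complex, contributed 8 genes, none of which rose or fell (6 positive and 2 negative differences, median 0.03). *Uqcr10*, a small subunit, had the largest difference with values of 10.54, 10.75 and 10.57 in *Igf1-/-* lungs and of 10.21, 10.48 and 10.58 in *Igf1+/+* lungs. These overlapped through *Igf1+/+* replicate 3 (log2 fold change 0.19, SE 0.11, adjusted p = 0.495 with limma). The core proteins *Uqcrc1* and *Uqcrc2* differed by 0.13 (SE 0.11) and -0.07 (SE 0.14). *Uqcrfs1*, which encodes the Rieske iron-sulfur protein, differed by -0.11 (SE 0.09), and *Uqcrb*, the brightest gene of complex III, differed by 0.01 (SE 0.08). The remaining genes, *Uqcrh*, *Uqcrq* and *Uqcr11*, lay between 0.02 and 0.05.

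Complex IV, cytochrome c oxidase, held the only subunit gene that passed the test, *Cox7c*. The study already lists this gene as up-regulated, from the same arrays with another statistic, so the call here is not independent of it. *Cox7c* encodes a small subunit in the membrane part of the enzyme. Its brighter probe set had values of 6.16, 6.00 and 6.36 in *Igf1-/-* lungs and of 5.19, 5.49 and 5.34 in *Igf1+/+* lungs. The *Igf1-/-* lungs were thus 1.78-fold higher (log2 fold change 0.83, SE 0.11, 95% interval 0.58 to 1.09, adjusted p = 0.0271 with limma, n = 3 per genotype), with higher values in 3 of 3 lungs. Its dimmer probe set had values of 4.42, 4.47 and 4.39 in *Igf1-/-* lungs and of 4.15, 4.06 and 3.87 in *Igf1+/+* lungs. The direction was the same there, without overlap (log2 fold change 0.40, SE 0.09, adjusted p = 0.135 with limma). These were the only 2 of 147 subunit probe sets with an adjusted p under 0.20, a level passed by 2.60% of all probe sets. The call of *Cox7c* at 0.10 was lost on leaving out the first array of either genotype, with an adjusted p of 0.107 (*Igf1-/-*) or 0.102 (*Igf1+/+*).

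Both *Cox7c* probe sets were dim, at percentiles 35.5 and 13.1 of the mean values of all probe sets, while the other widely expressed subunits of complex IV were bright. The suffix s of the brighter one marks probes that match more than 1 transcript. Another probe set, which the annotation assigns to *Gm12338* but whose source sequence is the RefSeq transcript of *Cox7c*, was at percentile 97.5. *Gm12338* is listed by RefSeq as a transcribed pseudogene. This probe set had values of 11.25, 11.38 and 11.36 in *Igf1-/-* lungs and of 11.10, 11.26 and 11.24 in *Igf1+/+* lungs, and the groups overlapped. Its log2 fold change was 0.13 (SE 0.08, 95% interval -0.05 to 0.32, adjusted p = 0.523 with limma), so that a difference of 0.83 lay outside its interval. The reading of *Cox7c* thus depends on the probe set, and with this probe set in place of the others no subunit gene rose or fell. This replacement was chosen after the values were seen. The probe sequences were not used here, and which transcripts each probe set detects was not tested.

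**Figure D3:**
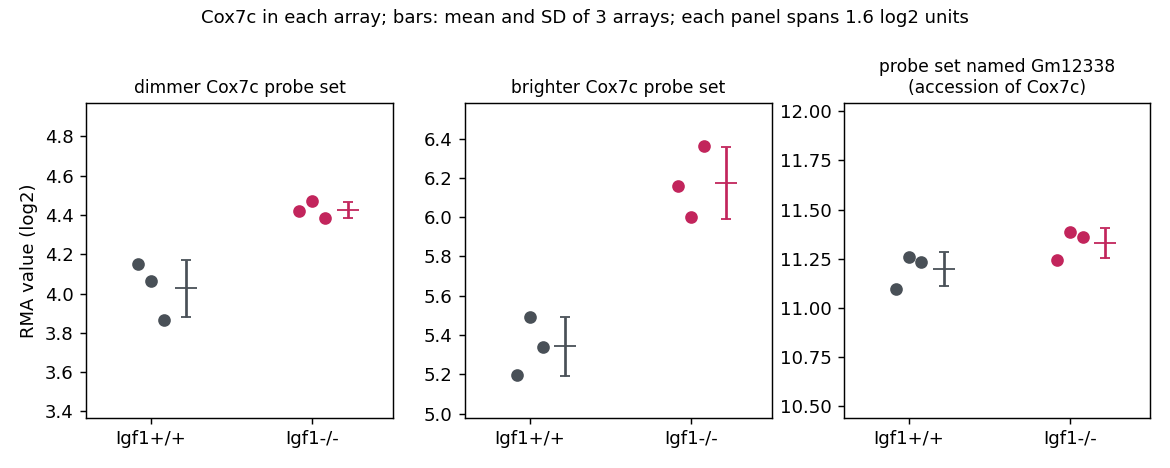
RMA values (log2, vertical axis) of the probe sets annotated to *Cox7c* and of the one annotated to *Gm12338* that was designed on the *Cox7c* transcript. Each point is an array, bars show mean and SD of 3 arrays, and each panel spans the same number of log2 units at a different level. The genotypes are separated at both dim probe sets (differences of 0.40 and 0.83) and overlap at the bright one (0.13).

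The other subunits of complex IV that are expressed in most tissues showed no difference beyond the spread of replicates. *Cox4i1*, the largest nuclear-encoded subunit and the brightest of the 78 genes, had values of 12.34, 12.57 and 12.47 in *Igf1-/-* lungs and of 12.33, 12.40 and 12.46 in *Igf1+/+* lungs (log2 fold change 0.06, SE 0.08). Log2 fold changes were 0.03 for *Cox5b*, -0.14 for *Cox5a*, -0.11 for *Cox6a1*, 0.04 for *Cox6b1*, 0.01 for *Cox6c*, -0.03 for *Cox7a2* and 0.03 for *Cox8a*, each with groups that overlapped. *Cox7a2l*, whose product takes part in joining complexes III and IV, differed by 0.01. *Cox4i2*, the isoform of subunit 4 that is prominent in lung and responds to oxygen, had values of 6.70, 6.71 and 6.58 in *Igf1-/-* lungs and of 6.45, 6.65 and 6.62 in *Igf1+/+* lungs. The groups of *Cox4i2* overlapped (log2 fold change 0.09, SE 0.08, adjusted p = 0.680 with limma). The testis isoforms *Cox6b2* and *Cox8c* differed by 0.14 and 0.13 (SE 0.07 and 0.08).

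The 3 isoforms of complex IV that are typical of heart and skeletal muscle, *Cox6a2*, *Cox7a1* and *Cox8b*, all had their highest value in *Igf1-/-* replicate 3. *Cox6a2* had values of 7.05, 7.09 and 7.43 in *Igf1-/-* lungs and of 7.16, 7.01 and 6.82 in *Igf1+/+* lungs. Those of *Cox8b* were 6.21, 6.38 and 6.54 compared with 6.22, 6.25 and 6.24, and those of *Cox7a1* were 5.03, 5.31 and 5.70 compared with 5.58, 5.42 and 5.63. Groups overlapped for all 3 genes. The log2 fold changes of *Cox6a2*, *Cox7a1* and *Cox8b* were 0.19, -0.20 and 0.14, with adjusted p values of 0.544, 0.623 and 0.551 with limma. Without *Igf1-/-* replicate 3 they were 0.08, -0.37 and 0.06. The cardiac markers had the same array at the top. The natriuretic peptide gene *Nppa* was measured at 4.32, 4.42 and 7.29 in *Igf1-/-* lungs and at 4.44, 4.21 and 4.42 in *Igf1+/+* lungs. The atrial light chain gene *Myl7* had values of 10.57, 10.63 and 11.82 compared with 10.63, 10.67 and 10.29. None of the 8 cardiac markers had an adjusted p under 0.10, and without *Igf1-/-* replicate 3 their log2 fold changes ran from -0.10 to 0.15.

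**Figure D4:**
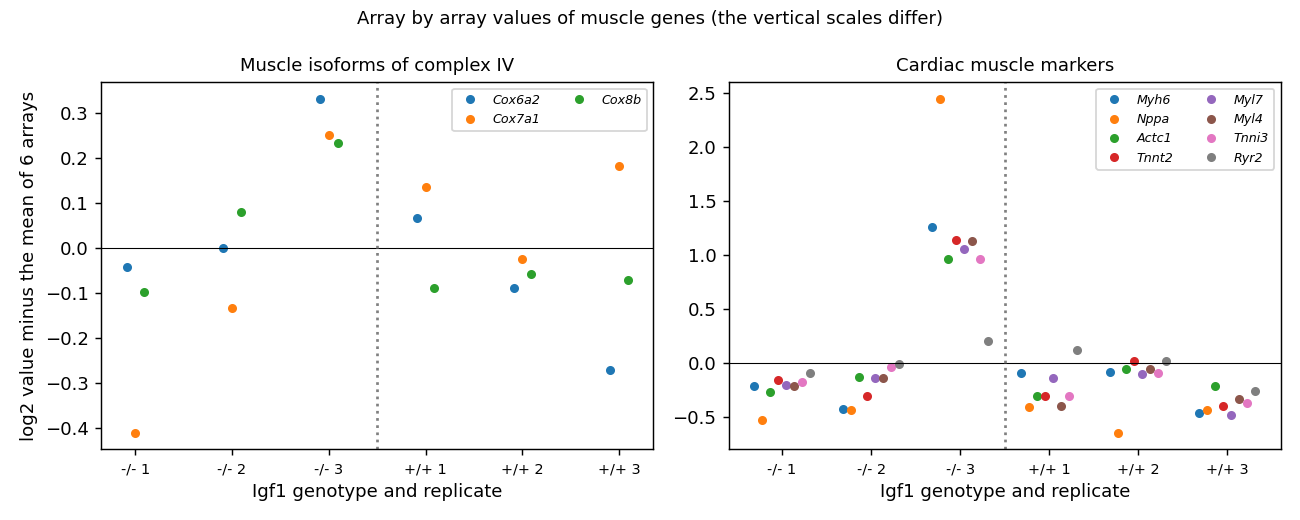
Deviation of the log2 value from the mean of 6 arrays (vertical axis) for each array (horizontal axis), for the muscle isoforms of complex IV (left) and 8 cardiac muscle markers (right). Each point is a gene, the vertical scales differ, and *Igf1-/-* replicate 3 holds the highest value of each of these genes.

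Complex V, the ATP synthase, had 17 genes, 12 with positive and 5 with negative differences (median 0.07, range -0.12 to 0.19), and none rose or fell. The median was 0.03 without *Igf1-/-* replicate 3. In the catalytic head, *Atp5a1* encodes the alpha subunit, and its values were 12.21, 12.27 and 12.25 in *Igf1-/-* lungs and 11.90, 11.93 and 12.32 in *Igf1+/+* lungs. The groups of *Atp5a1* overlapped because *Igf1+/+* replicate 3 had the highest value (log2 fold change 0.19, SE 0.11, adjusted p = 0.517 with limma). Without that lung the log2 fold change was 0.32 (adjusted p = 0.0977 with limma). For the beta subunit gene *Atp5b*, values were 12.36, 12.38 and 12.46 in *Igf1-/-* lungs and 12.25, 12.28 and 12.53 in *Igf1+/+* lungs (log2 fold change 0.05). *Atp5c1*, *Atp5d* and *Atp5e*, of the central stalk, differed by 0.09, 0.09 and 0.03. The 3 genes of the proton-conducting c ring, *Atp5g1*, *Atp5g2* and *Atp5g3*, which encode the same mature protein, differed by 0.18, 0.10 and 0.06. *Atp5o* and *Atp5pb*, of the peripheral stalk, differed by 0.15 and -0.12. *Atp5mpl*, a small membrane subunit, did not overlap between genotypes (9.942, 9.996 and 9.989 compared with 9.884, 9.916 and 9.915), with a log2 fold change of 0.07.

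More than 1 probe set was available for 43 of the 78 genes, and in 21 of these the estimates of different probe sets had opposite signs. The largest gap, 0.63 on the log2 scale, was found for *Ndufa12*, followed by *Cox7c* with 0.43 and *Ndufb9* with 0.32. *Ndufb9*, a subunit of the membrane arm of complex I, differed by 0.02 and -0.07 at both bright probe sets. At its dim one, *Ndufb9* had values of 5.26, 5.38 and 5.44 in *Igf1-/-* lungs and of 5.08, 5.06 and 5.18 in *Igf1+/+* lungs (log2 fold change 0.25, adjusted p = 0.255 with limma). A dim probe set of *Atp5g2* likewise had a higher estimate, 0.33, than the bright one, 0.10. The direction of such gaps was not uniform. In *Atp5a1*, the dim probe set differed by -0.09 and the bright one by 0.19. In 10 genes the brightest probe set was at or over the median of all probe sets and the dimmest was under it. Their medians were 0.04 at the bright and 0.06 at the dim probe sets. The dim one was higher in 5 of these 10 genes (50%), compared with 51.0% of 2040 genes of the whole array taken by the same rule.

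**Figure D5:**
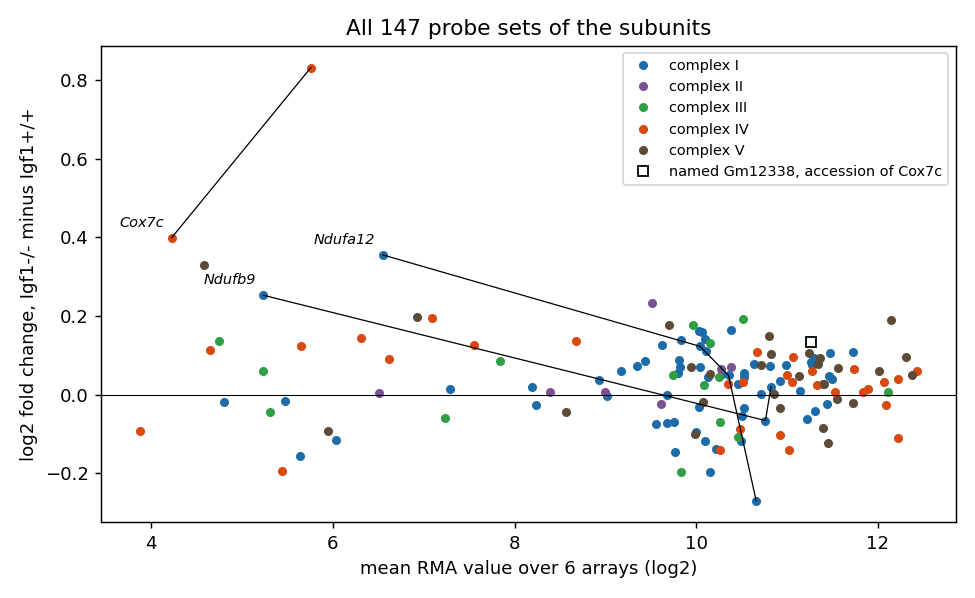
Log2 fold change (*Igf1-/-* minus *Igf1+/+*, vertical axis) against the mean RMA value over 6 arrays (log2, horizontal axis) of the 147 probe sets of subunit genes, coloured by complex. Lines join the probe sets of *Cox7c*, *Ndufa12* and *Ndufb9*, and the open square is the probe set annotated to *Gm12338*. The largest positive differences, those of *Cox7c*, are at dim probe sets, and the lowest, -0.27, is at a bright probe set of *Ndufa12*.

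Transcription of many subunit genes is known to depend on the factors NRF1, GABPA and YY1, which bind short DNA motifs close to the start sites. The 250 bases before the start were searched in the RefSeq promoters of the GRCm38.p6 assembly, which were given for 64 of the 78 genes. A gene with several listed promoters was counted once if any of them held the motif. The NRF1-like motif, read as GCGC, any base and TGCGC (on the other strand GCGCA, any base and GCGC), was found in 10 of 64 subunit genes (15.6%), compared with 4.23% of 27025 genes. The GABPA-like ETS motif CCGGAAG was found in 12 (18.8%), compared with 7.83%. The YY1-like motif GATGGCG was found in 2 (3.12%), compared with 2.52%. At least 1 of the 3 motifs was present in 20 subunit genes (31.2%) and in 13.3% of all genes. Each motif was counted separately, whether or not matches overlapped. A match describes the letters and not the binding of a factor. The promoter of *Cox7c*, the gene that passed the test, lies at chr13:86046796-86047045 on the minus strand and holds none of these letters. It is shown with those of both complex II genes with an NRF1-like motif, *Sdhd* (chr9:50603850-50604099, minus strand) and *Sdha* (chr13:74350241-74350490, minus strand), and with that of *Cox6a1* (chr5:115348959-115349208, minus strand), which holds both kinds. Sequences run 5′ to 3′ up to the base before the start, and capitals mark motif matches, of which CTTCCGG is the ETS motif on the other strand.
Cox7c: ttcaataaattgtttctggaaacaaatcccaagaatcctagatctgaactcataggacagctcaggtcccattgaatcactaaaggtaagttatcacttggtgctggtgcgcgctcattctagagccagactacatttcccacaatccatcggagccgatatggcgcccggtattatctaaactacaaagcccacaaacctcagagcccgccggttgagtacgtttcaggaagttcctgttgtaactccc
Sdhd: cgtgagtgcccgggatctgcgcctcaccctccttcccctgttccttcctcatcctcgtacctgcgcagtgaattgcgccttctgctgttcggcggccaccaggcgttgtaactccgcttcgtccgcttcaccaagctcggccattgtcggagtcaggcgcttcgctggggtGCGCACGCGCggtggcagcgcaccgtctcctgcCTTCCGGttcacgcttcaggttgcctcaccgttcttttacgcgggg
Sdha: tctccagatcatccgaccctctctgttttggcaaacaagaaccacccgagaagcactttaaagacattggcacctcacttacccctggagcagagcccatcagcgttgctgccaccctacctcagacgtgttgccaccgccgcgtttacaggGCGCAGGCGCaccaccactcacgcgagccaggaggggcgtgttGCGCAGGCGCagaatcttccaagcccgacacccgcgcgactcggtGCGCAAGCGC
Cox6a1: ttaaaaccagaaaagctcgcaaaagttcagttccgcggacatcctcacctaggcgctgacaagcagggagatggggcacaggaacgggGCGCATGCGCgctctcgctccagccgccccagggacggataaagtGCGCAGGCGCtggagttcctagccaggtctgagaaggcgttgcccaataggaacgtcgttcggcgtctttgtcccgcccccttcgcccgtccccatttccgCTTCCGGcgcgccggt
In *Sdhd*, the first match begins 79 bases before the start, and *Sdha* has 3 NRF1-like matches. The difference between genotypes was 0.23 for *Sdhd*, 0.07 for *Sdha* and -0.11 for *Cox6a1*, with adjusted p values over 0.10 with limma. For *Cox7c* it depended on the probe set, with 0.83 at the brighter one annotated to it and 0.13 at the one annotated to *Gm12338*. A relation between motifs and differences was not tested.

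Further genes of the mitochondrial pathways were read from lists that extend the subunits. None of their genes rose or fell. Assembly factors of the complexes (36 genes) were evenly divided, with 18 positive and 18 negative differences and a median of -0.02. Electron carriers and regulators (25 genes) had 10 positive and 15 negative differences (median -0.03). In the citric acid cycle (17 genes) there were 9 and 8 (median 0.03), among carriers and porins (22 genes) 17 and 5 (median 0.07), and among mitochondrial ribosomal proteins (74 genes) 47 and 27 (median 0.04). *ND5*, a complex I subunit encoded in mitochondrial DNA, had values of 12.38, 12.02 and 12.39 in *Igf1-/-* lungs and of 12.19, 12.22 and 12.13 in *Igf1+/+* lungs, a log2 fold change of 0.08 (adjusted p = 0.772 with limma).

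The following genes of these lists are named after their values were seen. *Gabpa*, which encodes the DNA-binding subunit of GABP, had values between 7.942 and 8.003 in *Igf1-/-* lungs and of 8.33, 8.45 and 8.12 in *Igf1+/+* lungs. The groups did not overlap, but the difference missed the threshold (log2 fold change -0.32, SE 0.09, adjusted p = 0.233 with limma). *Nrf1* differed by 0.19 (adjusted p = 0.442), with values of 7.348, 7.423 and 7.376 in *Igf1-/-* lungs and of 7.032, 7.193 and 7.354 in *Igf1+/+* lungs, which overlapped through *Igf1+/+* replicate 3. The coactivator gene *Ppargc1a* varied widely, with values of 5.13, 6.29 and 5.53 in *Igf1-/-* lungs and of 6.66, 6.34 and 5.58 in *Igf1+/+* lungs (log2 fold change -0.55, SE 0.32, adjusted p = 0.512 with limma). *Tfam*, the activator of mitochondrial DNA transcription, differed by -0.03, and *Cyc1*, which encodes cytochrome c1 of complex III, by 0.04. *Cycs*, the gene of cytochrome c, had values of 9.99, 9.77 and 10.10 compared with 10.35, 10.35 and 9.99 (log2 fold change -0.28, adjusted p = 0.400 with limma). *Pcx*, which encodes pyruvate carboxylase and was the only gene of the lists under an adjusted p of 0.20, had values of 8.66, 8.73 and 8.61 compared with 9.15, 8.98 and 8.87 (log2 fold change -0.33, SE 0.09, adjusted p = 0.194 with limma). All 3 *Igf1-/-* values of *Pcx* were below those of the *Igf1+/+* lungs.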

How the data were processed

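Log2 expression values of 6 lung arrays (3 per genotype) were deposited by the authors, who made them with RMA over 12 arrays, 6 of lung and 6 of cochlea. No source used here states its version. Of 22690 probe sets, 64 controls were left out. Gene names came from the platform annotation, which gives 1 symbol to 20380 probe sets, several to 691 and none to 1555; all 78 members matched the RefSeq table by Entrez number. With R 4.3.3 and limma 3.58.1, genotype was fitted to each probe set (lmFit, eBayes) and p values were adjusted over 22626 probe sets (Benjamini-Hochberg). The authors' SAM statistic was not rebuilt. The smallest exact permutation p with 3 against 3 arrays is 0.1. Code was checked on simulated data. The members, gene lists and naming rule were chosen with earlier results of these data known. The rule named genes with an adjusted p under 0.20, the largest changes and highest means per complex, tissue isoforms and widest probe set gaps. *Cox7c* was also in the rule because the study names it. Other genes are named for completeness of a complex. Marker lists covered lung epithelium, cardiac and skeletal muscle, brown fat, erythroid cells and granulocytes. The main fit did not pair replicates by number. Deviations of same-numbered lungs from the means of their genotypes correlated at -0.04, -0.23 and -0.14. With 3 arrays per genotype, these values cannot settle whether the numbers mark pairs. The number of arrays limits the precision.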

Additional observations from a re-analysis of the deposited data

How the results depend on the processing

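The count of subunit genes with an adjusted p under 0.10, which is 1, was 0 when probe sets under the median mean were left out, 0 with the dimmest probe set of each gene, and 0 with *Cox7c* at the probe set of its RefSeq transcript (chosen after seeing the data). Leaving out each array gave 0 to 3 genes. It was 0 without *Igf1-/-* replicate 1 and without *Igf1+/+* replicate 1 (adjusted p of *Cox7c* 0.107 and 0.102), and 3 without *Igf1+/+* replicate 3, where *Sdhd* (0.33, adjusted p = 0.0974) and *Atp5a1* joined *Cox7c*. The log2 fold change of *Cox7c* stayed between 0.74 and 0.92. The count over all probe sets, 126, was 204 with a variance trend and robust estimates, 628 with array quality weights, 588 at 0.20 and 54 at 0.05, and ranged from 45 to 710 when arrays were left out (710 without *Igf1+/+* replicate 3). With the replicate number as a block it was 138, the subunit count was 1 and the adjusted p of *Cox7c* was 0.0543; with sex as a block they were 121, 1 and 0.0550. Neither block changed the call of *Cox7c*. The median of complex II was 0.0058 with the dimmest probe sets, and that of complex IV was 0.014 to 0.089 when arrays were left out. With array weights, *Ndufb9* turned to -0.0015 and *Uqcrb* to -0.046. Signs also turned on leaving out arrays for *Cox7a2* (-0.10 to 0.024), *Cox7a2l* (-0.046 to 0.073), *Uqcrb* (-0.054 to 0.058), *Ndufb9* (-0.050 to 0.067), *Atp5b* (-0.0017 to 0.14), *Cox8a* (-0.033 to 0.13) and *Ndufb11* (-0.0082 to 0.076), none of which passed the test. Of 413 alternative values of named genes, 393 kept their direction and side of the threshold. The causes were not tested.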
